A study of Mus musculus with 11 samples.

Results

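The 9 genes described here make melanin or build the melanosome, the organelle that holds it. They are Tyr, Tyrp1, Dct, Pmel, Mlana, Oca2, Slc45a2, Gpr143 and Gpnmb. They were chosen by symbol, and all 9 were found among the 14602 genes counted. RNA was sequenced from the retinal pigment epithelium (RPE) and choroid of 11 C57BL/6J mice, a pigmented inbred strain, all collected at 12 months of age. The 6 naïve control mice received no laser, and the 5 laser treated mice were treated once they reached 9 months of age with the 2RT laser, whose pulses last nanoseconds, and recovered for 3 months. The treatment covers discrete spots, whereas the whole RPE/choroid was lysed, so treated and untreated areas are mixed in a laser treated library. The comparison asks whether pigment gene expression differed 3 months after laser. Total counts were between 25700881 and 38755994 per library, and every one of the 9 genes passed the filter on low counts. The headers of the transcript files carry a label, R1 (3 control and 2 laser treated libraries) or R2 (3 and 3), whose meaning is not given, so differences are also given within it.

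Melanin is made from tyrosine inside melanosomes. The organelle first forms a protein fibril, on which pigment is then laid down, and its pH sets the activity of the enzymes. The tissue holds 2 pigmented cell types, the RPE and the melanocytes of the choroid, and both use the same set of genes, so a bulk library adds their signals. Markers of both were present. Rpe65, the isomerase of the RPE visual cycle, was between 7718 and 15720.1 CPM (the count scaled to the size of its library), whereas Best1, an RPE chloride channel, was between 0 and 3.08 CPM. Sox10, a transcription factor of the neural crest lineage that includes melanocytes, was between 97.8 and 269 CPM. Mc1r, a receptor that drives pigment synthesis in melanocytes of the skin, was between 0 and 1.23 CPM.

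The 3 enzyme genes of melanin synthesis, Tyr, Tyrp1 and Dct, share a short element before their transcription start. It is shown beside their spread between mice, which is given below. The element TCATGTG holds the CATGTG core bound by MITF, the master regulator of pigment cells. Promoter sequences from RefSeq on GRCm38.p6 were at hand for 5 of the 9 genes (Tyr, Tyrp1, Dct, Oca2 and Gpnmb), and the 250 bases before each start were searched on both strands. Capitals mark TCATGTG, or its complement where the match is on the other strand. The sequences read 5′ to 3′ on the strand of the gene. The windows of Tyr (chr7:87493513-87493762, minus strand) and Dct (chr14:118052247-118052496, minus strand) are given whole. For Tyrp1 (chr4:80834156-80834182, plus strand) the match and 10 bases on each side are given, since the GENCODE M21 model of the gene starts 90 bases before the RefSeq start and so includes the match.
Tyr: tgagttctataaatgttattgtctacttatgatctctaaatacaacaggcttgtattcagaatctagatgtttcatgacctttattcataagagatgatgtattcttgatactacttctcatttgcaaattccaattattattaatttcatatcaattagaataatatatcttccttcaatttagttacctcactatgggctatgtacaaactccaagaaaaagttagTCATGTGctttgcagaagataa
Dct: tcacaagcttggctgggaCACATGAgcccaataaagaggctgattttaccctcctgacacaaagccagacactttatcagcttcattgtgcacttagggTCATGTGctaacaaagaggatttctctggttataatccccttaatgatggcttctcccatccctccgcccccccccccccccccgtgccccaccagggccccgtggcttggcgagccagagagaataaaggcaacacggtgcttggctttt
Tyrp1: ggggagggagTCATGTGctgcctagta

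The first base of the match lay 22 bases before the start in Tyr, 47 in Tyrp1 and 151 in Dct, and in all 3 genes it stood within the same 10 bases, GTCATGTGCT. Dct held another match on the other strand, 232 bases before the start. Of the 32851 promoters in the table, 3.25% held TCATGTG in a window of this length. The shorter core CATGTG, which every TCATGTG contains, was also found in Oca2, 186 bases before the start on the other strand, and 12.3% of all promoters held it. Dct held TAATCC, the form bound by OTX2, 119 bases before its start, a motif present in 6.25% of all promoters. CACGTG, present in 6.02% of all promoters, was found in none of the 5 windows, and Gpnmb held none of the 4 motifs. These are matches of letters and do not show binding.

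None of the 9 pigment genes differed between laser treated and naïve control mice beyond the spread between mice. By the edgeR quasi-likelihood test with Benjamini-Hochberg adjustment over all genes, 0 of the 9 genes had an adjusted p under 0.05, against 0.0% of all genes. At an unadjusted p under 0.05 the count was again 0 of 9, against 15.9% of all genes. In 0 of the 9 genes did the CPM of the groups not overlap, against 2.26% of all genes. DESeq2 called 502 of the 7512 genes to which it gave an adjusted p (6.68%), and it called 0 of the 9, all of which had one. Of the log2 fold changes, 7 were above 0 and 2 below, with a median of 0.11 against -0.019 over all genes. In bulk RNA, fewer pigmented cells and less RNA per pigmented cell cannot be told apart. The p-values measure the spread between these 11 samples.

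**Figure D1:**
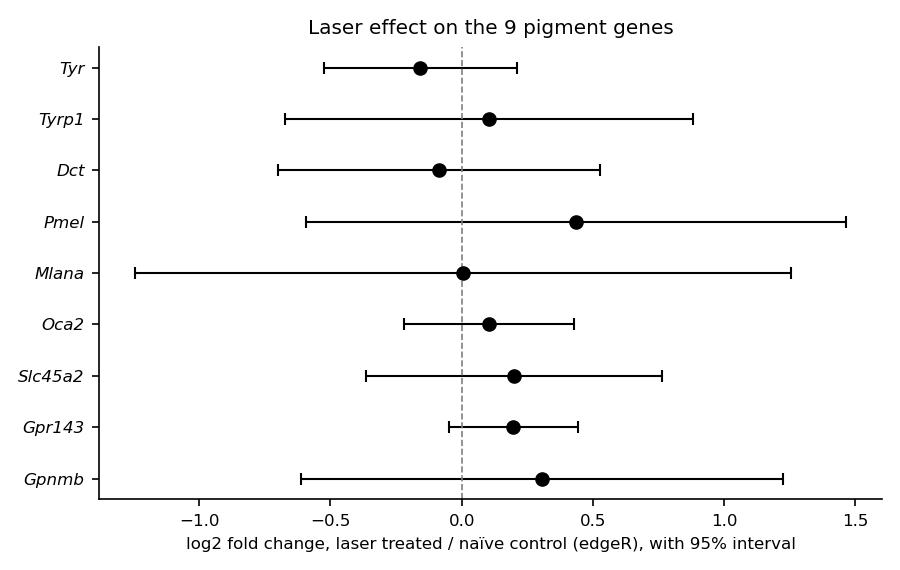
Laser effect on each pigment gene, as edgeR log2 fold change over the naïve controls (points, horizontal axis) with its 95% interval (bars), 6 control and 5 laser treated libraries. All 9 intervals include 0; Gpr143 and Oca2 have the shortest and Mlana the longest.

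Among the enzymes, Tyr encodes tyrosinase, which catalyses the rate-limiting step of melanin synthesis (chr7:87424771-87493512, GRCm38, minus strand). In naïve control mice Tyr was between 272 and 479.6 CPM with a median of 403 CPM, and in the laser treated mice it was 365, 414, 249, 305 and 389 CPM. The groups overlapped, with means of 384 ± 80.9 CPM (SD, n = 6) and 345 ± 66.8 CPM (SD, n = 5). The log2 fold change was -0.16 (SE 0.17, 95% interval -0.53 to 0.21, edgeR adjusted p = 0.730). Tyr had the lowest GC content of the 9 transcripts, 35.2%, and its log2 fold change was 0.26 once a trend on GC content was removed from each library.

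Tyrp1 encodes a tyrosinase-related protein that oxidizes a later intermediate and steadies tyrosinase (chr4:80834123-80851719, plus strand). Control values lay between 121 and 382 CPM with a median of 149 CPM, and laser treated values were 105, 216, 115, 225 and 361 CPM. A single mouse in each group was far above the others, control 4 and laser 5. The log2 fold change was 0.11 (SE 0.36, interval -0.67 to 0.88, edgeR adjusted p = 0.927), and -0.20 without laser 5.

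Dct, dopachrome tautomerase, directs the pathway towards a carboxylated eumelanin precursor (chr14:118012790-118052244, minus strand). It was between 683 and 1681 CPM with a median of 913 CPM in controls, and 563, 844, 816, 697 and 1737 CPM after laser. The same mice, control 4 and laser 5, held the highest values. The means were 988 ± 356 CPM (SD, n = 6) and 931 ± 464 CPM (SD, n = 5), and the log2 fold change was -0.086 (SE 0.29, interval -0.70 to 0.53, edgeR adjusted p = 0.926). Without control 4 it was 0.12.

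Pmel encodes the protein whose fragments assemble into the melanosome fibril (chr10:128704195-128720238, plus strand). In controls it ranged from 69.4 to 333 CPM with a median of 103 CPM, and in laser treated mice it was 82.5, 198, 84.7, 219.6 and 411 CPM. Control 4 and laser 5 were again highest, and 2 of the 5 laser treated mice lay below the control median. Its log2 fold change was the largest of the 9, 0.44, but with an SE of 0.47 and an interval of -0.59 to 1.47 (edgeR adjusted p = 0.733). Without laser 5 it was -0.011. Cdk2 and Dgka lie on the opposite strand and overlap 139 exonic bases of Pmel. The libraries do not mark strand, so reads in these bases cannot be assigned to Pmel or to the gene on the opposite strand.

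Mlana, also called MART-1, is a small melanosome membrane protein that Pmel needs for its processing (chr19:29697824-29708634, plus strand). It varied most of the 9 genes, with a coefficient of variation of 86.2% over the 11 libraries against a median of 34.6% for all genes. Controls lay between 25.5 and 124 CPM with a median of 33.2 CPM, and the laser treated mice had 25.4, 27.4, 21.5, 30.8 and 145 CPM. Laser 5 was far above the other laser treated mice, which all lay within the control range or just under it. The log2 fold change was 0.0054 (SE 0.58, interval -1.25 to 1.26, edgeR adjusted p = 0.997). Without laser 5 it was -0.92 (edgeR adjusted p = 0.278, the unadjusted p being under 0.05).

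Oca2 encodes a melanosome chloride channel that raises the pH in which tyrosinase works (chr7:56239760-56536518, plus strand). It was between 157 and 257 CPM with a median of 202 CPM in controls and 237, 267, 204, 204 and 188 CPM after laser. The 3 lowest controls lay below every laser treated mouse and laser 2 lay above every control, with overlap between them. Oca2 had a log2 fold change of 0.10 (SE 0.15, interval -0.22 to 0.43, edgeR adjusted p = 0.815), and 0.023 without laser 2. Within label R1 the log2 fold change was 0.60 (edgeR adjusted p = 0.181) and within R2 it was -0.26 (edgeR adjusted p = 0.80). The unadjusted p was under 0.05 in R1, as it was for 17.6% of all genes. The difference between the labels was -0.86 (SE 0.19, edgeR adjusted p = 0.321), with an unadjusted p under 0.05, as for 9.5% of all genes. Tyr went the same way, with 0.25 within R1 and -0.45 within R2. The R2 value had an unadjusted p under 0.05, as did 6.22% of all genes there, and so did the difference of -0.70 (SE 0.30, edgeR adjusted p = 0.496). For the other 7 genes the difference between labels had an edgeR adjusted p of at least 0.767.

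Slc45a2, a melanosome transporter that also acts on organelle pH (chr15:11000721-11029233, plus strand), had the lowest counts of the 9. Controls were between 18.7 and 49.2 CPM with a median of 33.2 CPM, and the laser treated mice had 31.9, 37.7, 31.2, 51.9 and 42.8 CPM. The 2 lowest controls, at 18.7 and 20.9 CPM, were below every laser treated mouse, and the ranges overlapped above them. The log2 fold change was 0.20 (SE 0.26, interval -0.36 to 0.76, edgeR adjusted p = 0.788). It was 0.063 without laser 4, 0.064 without control 3, 0.093 without control 1, 0.32 without control 4 and 0.32 without control 6.

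Gpr143, the ocular albinism receptor that controls melanosome size and number (chrX:152781921-152808646, plus strand), varied least, with a coefficient of variation of 13.0%. Controls lay between 134 and 171 CPM with a median of 149 CPM, and laser treated mice had 198, 178, 157, 143 and 182 CPM. In 3 of the 5 laser treated mice Gpr143 was above every control. The means were 149.8 ± 14.9 CPM (SD, n = 6) and 172 ± 21.6 CPM (SD, n = 5), and the log2 fold change of 0.20 had the shortest interval and the smallest p of the 9 genes (SE 0.11, interval -0.049 to 0.44, edgeR adjusted p = 0.433). With 1 library left out the log2 fold change lay between 0.14 (without laser 1, edgeR adjusted p = 0.628) and 0.24 (without laser 4, edgeR adjusted p = 0.362), and only without laser 4 was the unadjusted p under 0.05.

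Gpnmb is a glycoprotein related to Pmel that is made by pigment cells and also by macrophages (chr6:49036546-49070929, plus strand). In controls it ranged from 181 to 872 CPM with a median of 339 CPM, and in the laser treated mice it was 224, 392, 360.5, 572 and 936 CPM. Control 4 and laser 5 again had the most. The log2 fold change was 0.31 (SE 0.42, interval -0.61 to 1.22, edgeR adjusted p = 0.806), and -0.054 without laser 5. Of the macrophage markers, none of the 10 had an unadjusted p under 0.05, and levels differed widely between them, with Csf1r between 193 and 468 CPM, C1qc between 11.4 and 50.9 CPM and Aif1 between 1.3 and 5.2 CPM.

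**Figure D2:**
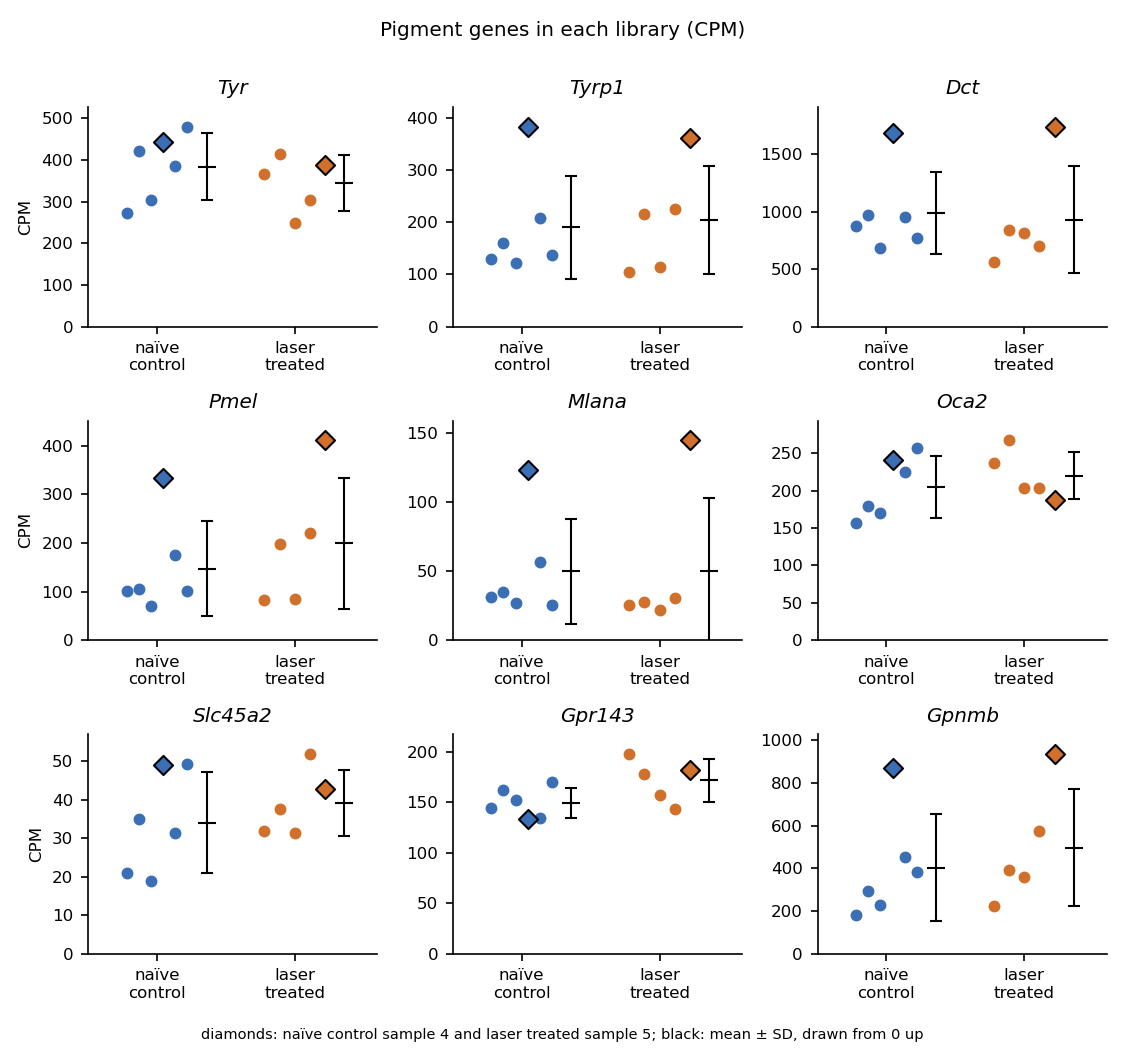
CPM (vertical axes from 0) of each pigment gene in the 6 naïve control (blue) and 5 laser treated (orange) libraries, with the mean ± SD of each group in black. Diamonds mark control 4 and laser 5, which are the highest of their groups for Tyrp1, Dct, Pmel, Mlana and Gpnmb and not for Tyr, Oca2, Slc45a2 and Gpr143.

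Per length, the genes were ordered by mean CPM per kilobase of merged exons over the 11 libraries. Dct came first with 163 ± 65.8 (SD, n = 11 for each gene), followed by Gpr143 with 80.1 ± 10.4, Pmel with 74.5 ± 49.2, Tyrp1 with 69.4 ± 34.1 and Gpnmb with 68.3 ± 38.9. Oca2 had 53.4 ± 9.16, Tyr 51.5 ± 10.4, Mlana 47.1 ± 40.6 and Slc45a2 12.2 ± 3.72. Of the 8 steps between neighbours, only the first and the last exceeded their spread over libraries. Dct was above Gpr143 in 10 of 11 libraries by a mean log2 ratio of 0.95 (SD 0.58, exact two-sided sign-flip permutation test p = 0.00195, adjusted over the 8 steps p = 0.0078). Mlana was above Slc45a2 in 11 of 11 by 1.68 (SD 0.89, exact p = 0.00098, adjusted p = 0.0078). The smallest exact p of the other 6 steps was 0.118, so these neighbours did not differ beyond their spread. Genes further apart in the order were not tested, but Gpr143 was above Oca2 and above Tyr in 11 of 11 libraries, and Pmel was above Mlana in 11 of 11. Dct also came first and Slc45a2 last by the longest coding transcript and by TPM of the transcript files, but by TPM Oca2 moved from rank 6 to 8 and Tyrp1 from 4 to 2. Bases of an exon without an assembled transcript add nothing to this TPM.

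The larger differences among the 9 genes were between mice, not between groups. The median coefficient of variation of the 9 genes was 40.3%, against 34.6% over all genes, so their spread was not far from that of other genes. Tyrp1, Dct, Pmel, Mlana and Gpnmb varied from 3.09-fold to 6.72-fold between the lowest and the highest library, and in each of these 5 genes control 4 was the highest control and laser 5 the highest laser treated mouse. How many of all genes had these 2 libraries highest was not counted. By coefficient of variation, 58.3% of all genes varied less than Dct and 88.9% less than Mlana, the lowest and highest of the 5. Tyr, Oca2 and Gpr143 varied by 1.92-fold, 1.70-fold and 1.48-fold, and Slc45a2 by 2.77-fold. Tyr, whose product starts the pathway, therefore varied less than the enzymes that follow it, with a coefficient of variation of 20.2% against 49.1% for Tyrp1 and 40.3% for Dct.

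Over the 11 libraries, 11 of the 36 pairs of pigment genes were correlated in log2 CPM after adjustment over the pairs, all 11 positively. The share among pairs of other genes was not computed, so this count does not show a trait particular to pigment genes. They were the 10 pairs among Tyrp1, Dct, Pmel, Mlana and Gpnmb, and Slc45a2 with Gpnmb. Tyrp1 and Pmel were closest (Pearson r = 0.98, permutation p = 3.0e-05, adjusted p = 0.00108; Spearman coefficient 0.96). By Spearman, 5 pairs passed. Much of this rested on control 4 and laser 5. Without control 4 the count of pairs was 5, and without laser 5 it was 6. With the 2 libraries farthest from the median of the gene on the x axis left out, 4 of the 11 pairs kept an unadjusted permutation p under 0.05. These were Tyrp1 with Pmel (r = 0.96), Tyrp1 with Gpnmb (r = 0.75), Pmel with Gpnmb (r = 0.76) and Slc45a2 with Gpnmb (r = 0.79). Only Tyrp1 with Pmel passed once adjusted. The other 7 pairs, each with Dct or Mlana, no longer passed, among them Dct with Mlana (r = 0.92, then 0.55). Centred on the header label, Tyrp1 and Pmel had r = 0.97. The labels hold 5 and 6 libraries, so r was not computed within each.

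**Figure D3:**
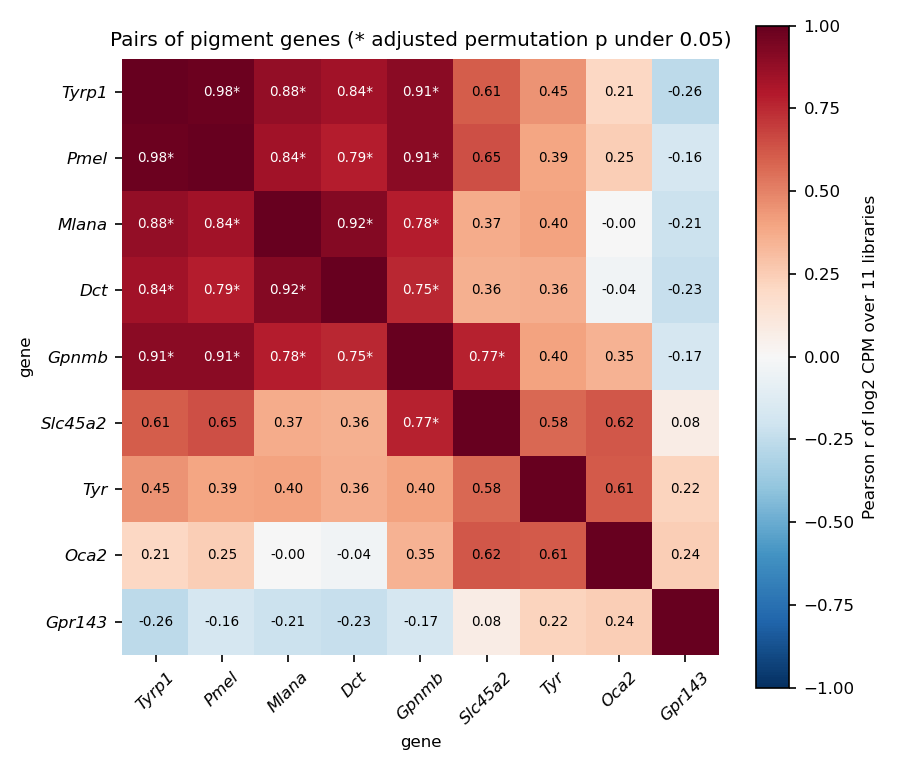
Pearson r of log2 CPM over 11 libraries for each pair of pigment genes (colour and printed value), with an asterisk where the permutation p adjusted over 36 pairs is under 0.05. The block of high values at the upper left holds Tyrp1, Pmel, Mlana, Dct and Gpnmb, and r of Gpr143 with the other genes lies between -0.26 and 0.24.

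Tyr was not detectably correlated with the other enzymes (Tyrp1 r = 0.45, Spearman 0.54, and Dct r = 0.36, Spearman 0.40). With Pmel, r of Tyr was 0.39 (Spearman 0.51). With the 2 farthest libraries left out, r was 0.32 for Tyr with Tyrp1 and 0.44 for Tyrp1 with Dct. Whether these coefficients differ was not tested. The highest Tyr value, control 6 with 479.6 CPM, went with only 101 CPM of Pmel. Gpr143 had negative r with each of the 5 co-varying genes, between -0.26 and -0.16, none of them past the threshold. With the 2 libraries farthest on Gpr143 left out, all 5 turned positive, between 0.22 and 0.45, again with none past the threshold.

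**Figure D4:**
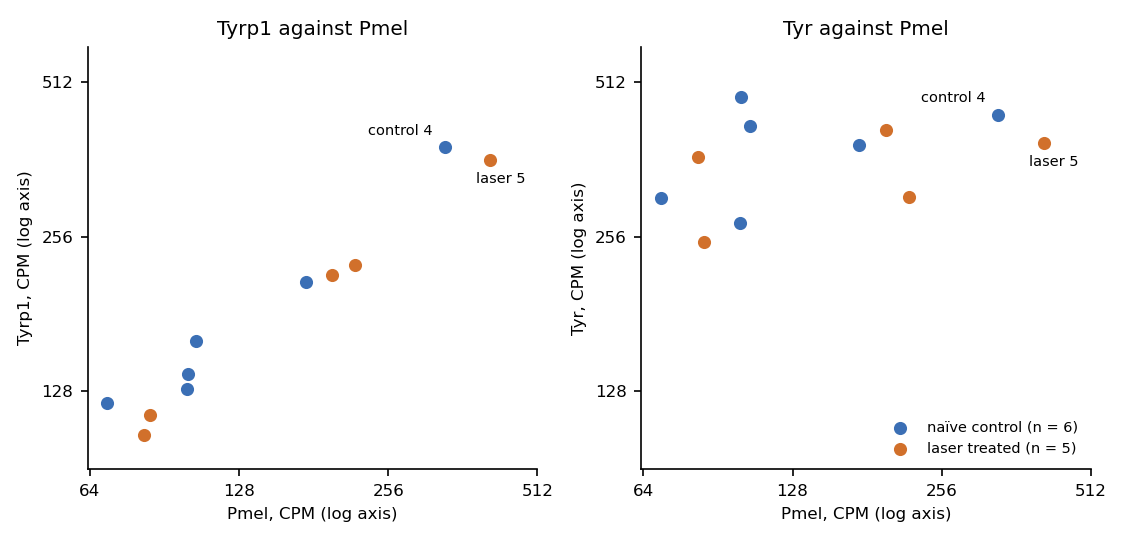
Tyrp1 (left) and Tyr (right) against Pmel in CPM on log axes, one point per library, naïve control in blue and laser treated in orange. Tyrp1 follows Pmel through the whole range (r = 0.98), whereas Tyr does so less closely (r = 0.39). Both the lowest Tyr (249 CPM, laser 3) and the highest (479.6 CPM, control 6) lie at low Pmel, 84.7 and 101 CPM. At the highest Pmel, Tyr is at 443 CPM (control 4) and 389 CPM (laser 5).

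Marker genes of the cell types in the sample were set beside this pattern. A cell type score averages the z-scores of its markers (log2 CPM). The 6 melanocyte markers weigh equally in their score. Among them is Mlph, also a melanosome transport gene, highest in control 4 (17.7 CPM) and laser 5 (12.6 CPM) of their groups. Mc1r and Pax3, at most 1.23 and 1.71 CPM, enter it too. Sox10 was highest of the controls in control 4 (149 CPM) but lowest of the laser treated mice in laser 5 (148 CPM). Of 18 relations of the 9 genes with the RPE and melanocyte scores, 0 passed after adjustment, and 5 had an unadjusted permutation p under 0.05. The share of other genes related to these scores was not computed. Pmel (r = 0.75, Spearman 0.55, p = 0.009, adjusted p = 0.102), Tyrp1 (r = 0.68, Spearman 0.55, p = 0.023, adjusted p = 0.102) and Gpnmb (r = 0.64, Spearman 0.55, p = 0.033, adjusted p = 0.120) went with the melanocyte score. Oca2 (r = 0.71, Spearman 0.70, p = 0.017, adjusted p = 0.102) and Gpr143 (r = 0.69, Spearman 0.61, p = 0.019, adjusted p = 0.102) went with the RPE score. With the 2 libraries farthest on the score left out, r was 0.60 for Pmel, 0.57 for Tyrp1, 0.39 for Gpnmb, 0.71 for Oca2 and 0.64 for Gpr143. Centred on the group, Pmel (r = 0.80, adjusted p = 0.031) and Tyrp1 (r = 0.83, adjusted p = 0.031) passed with the melanocyte score by the same permutation test. Centred on the header label, Pmel (r = 0.77), Gpnmb (r = 0.76) with the melanocyte score and Oca2 with the RPE score (r = 0.78) passed, each with an adjusted p of 0.044.

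The summed CPM of the 6 measured melanocyte markers was between 157 and 211 in controls and between 248 and 342 in laser treated mice, with no overlap. Taken singly, 0 of the 6 markers were without overlap, and sums of other genes were not compared in this way. Most of the sum came from Sox10 and from Ednrb, which was between 29.3 and 70.9 CPM. Sox10 had a log2 fold change of 0.62 (SE 0.16, edgeR adjusted p = 0.172). Of the 6, 5 had a log2 fold change above 0, and Mc1r had -0.87. Mc1r and Pax3 were at most 1.23 and 1.71 CPM. The sum of the 10 RPE markers, of which Rgr had the most, overlapped between groups (95969 to 134161 against 80319.7 to 131708 CPM). Of these 10 markers, 5 had a log2 fold change above 0 and 5 below. Those below were Ttr (-0.20), Rpe65 (-0.19), Lrat (-0.14), Rgr (-0.078) and the barely detected Best1 (-0.76). At an unadjusted p under 0.05, 3 were higher after laser (30.0%, against 8.24% of all genes) and 0 were lower (7.68% of all genes). The 3 higher ones were Stra6, the vitamin A receptor (log2 fold change 0.53), Slc16a8, a lactate transporter (0.50), and the keratin Krt18 (0.35), with edgeR adjusted p between 0.179 and 0.290. Neural retina genes enter a library when retinal RNA remains on the RPE. The score of 10 neural retina markers was lowest in laser 5 (-1.26) and nearly as low in laser 1 (-1.20), which held the lowest Tyrp1 and Dct of all libraries. Among the controls it was lowest in control 6 (-0.61), with -0.41 in control 4. Tyr had r = -0.75 with this score (Spearman -0.59, permutation p = 0.010, adjusted over 9 genes p = 0.093). The myelin gene Mbp was at 165 CPM in control 4 against at most 53.0 CPM in the other controls, and at 566, 30.1, 69.5, 268 and 440.1 CPM in laser 1 to 5. Its log2 fold change was 2.22 (SE 0.74, edgeR adjusted p = 0.208), and its highest value was in laser 1, where Tyrp1 and Dct were lowest. The part of these tissue contents in the pigment gene results was not tested.

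Apart from the members themselves, the 5 genes whose log2 CPM was most like the mean z-score of the 9 pigment genes over the 11 libraries were Ephx2 (Pearson r = 0.91), Cdk2 (0.91), Palmd (0.91), Igfbp6 (0.90) and Cyth3 (0.89). Cdk2 overlaps Pmel on the opposite strand, as given above, and was between 6.78 and 19.1 CPM.

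Beyond the 9 members, melanosomes depend on sorting complexes, transport motors, ion transporters and transcription factors, and 50 such genes in 4 lists were measured. Of these, 12 (24.0%) had an unadjusted p under 0.05 by edgeR, against 15.9% of all genes, 8 of them higher after laser (8.24% of all genes) and 4 lower (7.68% of all genes). After adjustment over all genes 0 passed by edgeR. DESeq2 called 3 of the 38 to which it gave an adjusted p, Tfeb, Hps4 and Myo5a, against 6.68% of all genes given one. Hps1 and Hps6 were given none. The median log2 fold change of the 50 was 0.079, against -0.019 over all genes. Leaving out control 3 brought the 12 down to 7, and the share of all genes to 11.9%. With a trend on GC content removed from each library the count was also 7, and the share of all genes 7.33%.

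The sorting list (25 genes) covers the complexes that carry cargo to the melanosome, and it held 7 of the 12, 5 higher and 2 lower after laser. The Hermansky-Pudlak genes Hps1 (log2 fold change 0.85, SE 0.36) and Hps4 (0.73, SE 0.22), which form BLOC-3, were higher, as was Hps6 of BLOC-2 (0.98, SE 0.37), all by edgeR with adjusted p between 0.178 and 0.279. Hps1 and Hps6 had few counts, at most 20.9 and 17.6 CPM. Without laser 4, which held that highest value, Hps6 was 0.59 and its unadjusted p was no longer under 0.05 (edgeR adjusted p = 0.488). Vps33a, a membrane tethering subunit (0.41), and Rabggta, which lipidates Rab proteins (0.49), were also higher. Bloc1s2 of BLOC-1 (-0.53) and Ap3s1 of the AP-3 adaptor (-0.60) were lower, Ap3s1 being -0.28 with the GC trend removed (edgeR adjusted p = 0.850). The sorting gene with the most counts, Cd63, a tetraspanin that sorts Pmel, had a log2 fold change of -0.19 (SE 0.16, edgeR adjusted p = 0.621).

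In the transport list (8 genes) the myosin motors went opposite ways. Myo7a, which moves melanosomes in the RPE, had a log2 fold change of 0.48 (SE 0.22), and Myo5a, the melanosome motor of melanocytes, had -0.75 (SE 0.23), with adjusted p of 0.304 and 0.179 by edgeR. Myo7a was between 24.7 and 58.1 CPM in controls and between 49.7 and 87.9 CPM after laser, and Myo5a between 29.2 and 53.9 CPM and between 16.4 and 37.2 CPM, so both overlapped. Without laser 4 Myo7a was 0.30, and its unadjusted p was no longer under 0.05 (edgeR adjusted p = 0.575). Rab27a, which links melanosomes to their motors, had the most counts of the list and a log2 fold change of 0.22 (SE 0.13, edgeR adjusted p = 0.461).

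Of the 9 ion and metabolite transporters, only Clcn7, a lysosomal chloride transporter, had an unadjusted p under 0.05 (0.52, SE 0.21, edgeR adjusted p = 0.258). Slc24a5, the melanosome exchanger with the most counts here, had -0.027 (SE 0.15, edgeR adjusted p = 0.956).

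Of the 8 transcription factors, 2 had an unadjusted p under 0.05, and they belong to the same family. Mitf was between 50.0 and 83.3 CPM with a median of 78.8 CPM in controls, and 70.9, 48.7, 44.7, 40.1 and 55.6 CPM after laser. Its log2 fold change was -0.49 (SE 0.18, edgeR adjusted p = 0.22). Tyr, Tyrp1, Dct and Oca2, whose promoters held the CATGTG core, had log2 fold changes of -0.16, 0.11, -0.086 and 0.10. That core was found in 12.3% of all promoters, and action of Mitf on these genes was not tested. With the GC trend removed Mitf was -0.21 (edgeR adjusted p = 0.860). Tfeb, a regulator of lysosome genes, was between 10.7 and 19.1 CPM in controls and 19.3, 30.3, 25.9, 26.5 and 24.1 CPM after laser. It was the only one of the 50 whose groups did not overlap, where 2.26% of all genes did not, with a log2 fold change of 0.85 (SE 0.20, edgeR adjusted p = 0.172). Otx2, the factor with the most counts, had 0.071 (SE 0.13, edgeR adjusted p = 0.862).

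**Figure D5:**
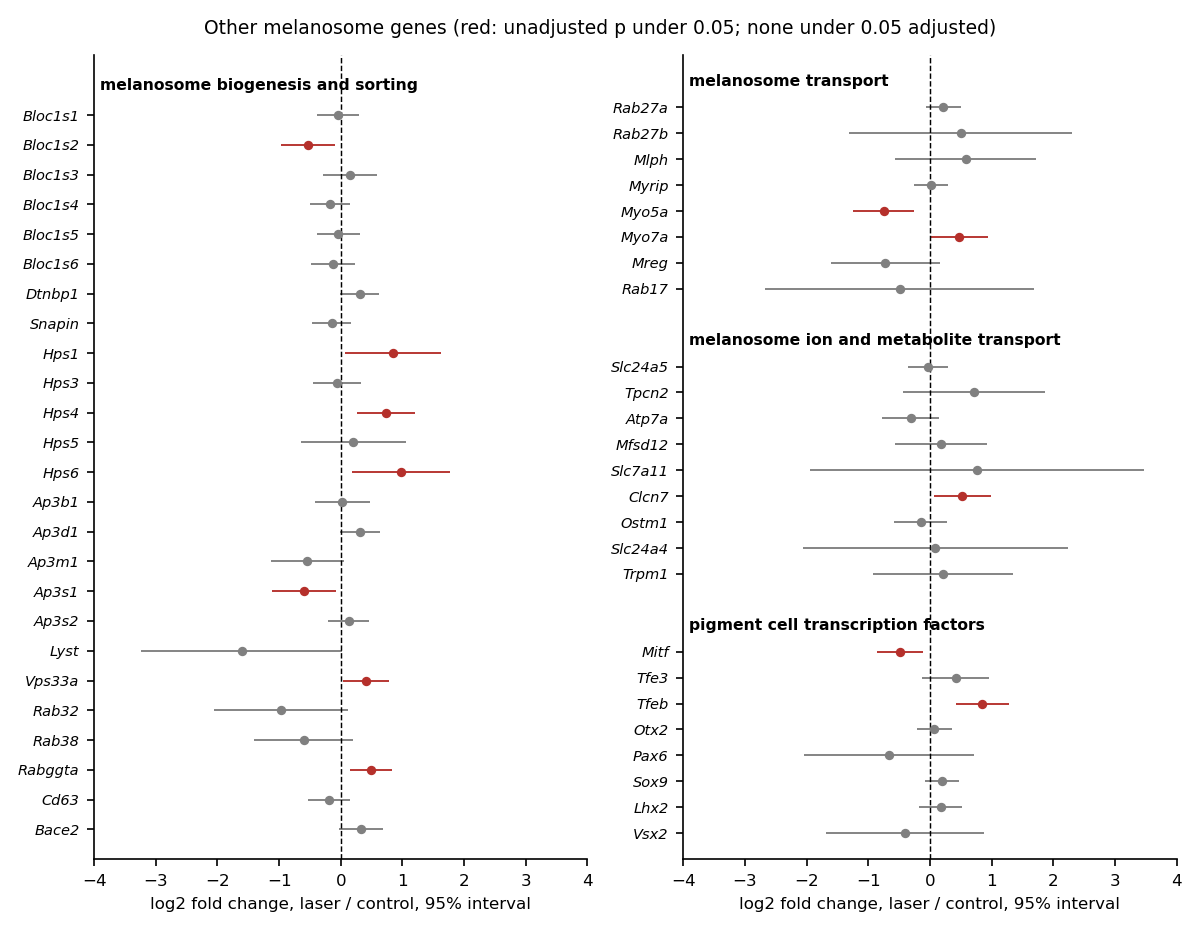
Laser effect as edgeR log2 fold change over the naïve controls (points, horizontal axis) with 95% intervals (bars) for 50 further melanosome genes in 4 lists, red where the unadjusted p is under 0.05. The 8 red points to the right of 0 and the 4 to the left belong to the genes named in the text, and none has an adjusted p under 0.05.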

How the data were processed

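The members, lists and motifs were chosen with earlier results of these data known. The authors deposited raw counts per gene. Their processing notes name bcl2fastq 2.18.0.12, Trim Galore, STAR 2.5.3a, featureCounts 1.5.3, StringTie 1.3.3 and edgeR 3.22.3, with the builds mm10 and GRCm38, after SmartSeq v4 pre-amplification and Nextera XT libraries, which do not mark strand. The log2 fold change, score (F statistic), p-value and FDR columns that the authors deposited hold their own comparison and were not used. Their transcript files give coverage and TPM of assembled single-exon transcripts. TPM were summed per gene by exonic overlap, divided by merged exon length.

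Counts were fitted in edgeR 4.0.16 (R 4.3.3) with TMM, filterByExpr, which removed 0 genes, and robust quasi-likelihood tests, after a check on simulated data. CPM use TMM-scaled library sizes and log2 CPM a prior count of 2. Correlations used 100000 permutations (smallest p 1e-05), level steps all sign flips (smallest p 9.8e-04). Of 14602 genes, 97.6% had GENCODE M21 length and GC content. The named genes are the 9 members, genes of the other lists with an unadjusted p under 0.05, without overlap or with the most counts, defining markers and the 5 most similar genes. Alternatives were DESeq2 1.42.0, limma 3.58.1 (voom or TPM), other scalings and filters, GC correction, covariates, the replicate block and each library left out. Python 3.11.15, pandas 2.3.3, numpy 2.4.6, scipy 1.17.1 and matplotlib 3.10.9 were used.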

Additional observations from a re-analysis of the deposited data

Results flagged for a closer look

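Single libraries far from the rest of their group were looked for with Dixon's ratio in 50 groups of values, 18 of them of the 9 pigment genes. There were 8. The critical values let about 1 in 20 groups pass if values are normally distributed and independent. CPM were not checked for this, several of the genes vary together, and most of the others were named for their p. The share of all genes with such a value was not computed, so the count cannot be set against chance. Of these, 5 were values of pigment genes, all in control 4 or laser 5 and all high. In control 4 they were Tyrp1 (382 CPM, others at most 208 CPM), Dct (1681 CPM, others at most 968 CPM) and Mlana (124 CPM, others at most 56.5 CPM). In laser 5 they were Dct (1737 CPM, others at most 844 CPM) and Mlana (145 CPM, others at most 30.8 CPM). Among the other melanosome genes, Bloc1s2 was high in control 3 (42.8 CPM, others at most 28.1 CPM), and Hps6 (17.6 CPM, others at most 7.64 CPM) and Myo7a (87.9 CPM, others at most 57.2 CPM) were high in laser 4.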

How the results depend on the processing

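Over 26 alternatives per gene, 209 of 234 log2 fold changes of the 9 pigment genes kept their sign and 0 passed the adjusted threshold. Some of these signs could not change. The fit with no filter was the main fit, since the filter removed 0 genes. The fit without robust estimation had the same log2 fold changes. Oca2, Slc45a2 and Gpr143 kept their sign throughout, but with 1 library left out they ranged from 0.023 to 0.16, 0.063 to 0.32 and 0.14 to 0.24. The cause of the changes below was not tested. Genes called over the whole table were 502 by DESeq2, 2 with at least 10 counts in every sample, 1 by limma voom and 0 to 4 with 1 library left out, the 4 without laser 2. Pigment genes at an unadjusted p under 0.05 were 2 with the replicate block and GC trend removed (Tyr 0.44 and Slc45a2 0.50), 1 with the neural retina score as a covariate (Tyr -0.31, an alternative chosen after seeing the data) and 0 to 1 with 1 library left out. Other melanosome genes were 7 with the GC trend removed (7.33% of all genes, against 15.9%) and 7 to 17 with 1 library left out, the 7 without control 3 (11.9% of all genes) and the 17 without control 6 (19.1%).

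Tyr was 0.26 with the GC trend removed, 0.44 with the block added, and 0.069 or 0.071 by TPM with a pseudocount of 1 or 0.1. Tyrp1 was -0.090 by voom, -0.047 with the neural retina score and -0.0010 with the block. Mlana was -0.14 with the header label, -0.38 by voom, -0.45 with the neural retina score, -0.34 with the block, -0.11 with the block and GC, and -0.42 or -0.40 by TPM. Cd63 was 1.53 or 1.51 by TPM. Slc24a5 was 0.24 with the GC trend removed, 0.021 with the block and 0.36 with both. Otx2 was -0.0087 with the RPE score and -0.067 or -0.068 by TPM. With 1 library left out the ranges were -0.24 to -0.061 (Tyr), -0.20 to 0.43 (Tyrp1), -0.44 to 0.12 (Dct), -0.011 to 0.85 (Pmel), -0.92 to 0.51 (Mlana), -0.054 to 0.68 (Gpnmb), -0.11 to 0.020 (Slc24a5) and -0.012 to 0.14 (Otx2). The 12 other melanosome genes with an unadjusted p under 0.05 kept their sign throughout, but with the GC trend removed, alone and with the block, Mitf was -0.21 and -0.13, and Ap3s1 -0.28 and -0.20, from -0.49 and -0.60.

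Level steps past the threshold were 0 in the naïve controls alone, where the smallest exact p is 0.031, and 2 with any 1 library left out. Correlated pairs were 5 by Spearman, 1 without the 2 farthest libraries, 6 by TPM and 5 to 13 with 1 library left out. Relations with the RPE and melanocyte scores were 2 centred on group and 3 centred on label. With the neural retina score there was 1 centred on group and 0 to 1 with 1 library left out. Same-numbered libraries correlated between -0.01 and 0.28 in their deviations from the group means. Differently numbered libraries were not compared in this way, so these values cannot decide whether the numbers pair the mice. With the replicate block, 0 genes were called and 0 pigment genes had an unadjusted p under 0.05.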

Other observations

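Other melanosome genes that were high in control 4 and laser 5 are given as values, chosen after their values were seen. Trpm1, a cation channel of melanocytes and retina, had 122 CPM in control 4 against at most 66.2 CPM in the other controls, and 123 CPM in laser 5 against at most 72.7 CPM in the other laser treated mice. Rab38, which carries tyrosinase and Tyrp1 to melanosomes, had 54.7 CPM in control 4 against at most 33.7 CPM, and 27.7 CPM in laser 5 against at most 18.8 CPM. Mlph, the adaptor between Rab27a and Myo5a and also a marker in the melanocyte list, had 17.7 CPM in control 4 against at most 3.71 CPM, and 12.6 CPM in laser 5 against at most 10.5 CPM. Rab27b had 19.2 CPM in control 4 against at most 16.7 CPM, and 28.8 CPM in laser 5 against at most 13.1 CPM.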
